A study of Mus musculus with 6 samples.

Results

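The miR-34 and miR-449 family of the mouse was represented by 6 of the 1189 miRNA entries of the small RNA libraries, which were mmu-miR-34a-5p, mmu-miR-34b-5p, mmu-miR-34b-3p, mmu-miR-34c-5p, mmu-miR-34c-3p and mmu-miR-449a-5p (the prefix mmu is left out from here on). The members were chosen by name, as the p53-induced miR-34a and the miR-34b, miR-34c and miR-449a of ciliated cells. No measured value entered the choice, although earlier results of these data were known when it was made. The libraries came from the prefrontal cortex of male C57BL/6 wild type mice aged 18 months (by the age label, whereas the titles of the samples carry 17M), 3 in a group labelled PND (postoperative neurocognitive disorder) and 3 in a control group labelled CON, with 1 library per mouse. The PND mice breathed 1.5% isoflurane for 30 min and then had an exploratory laparotomy of 30 min, also under isoflurane. They received lidocaine cream and povidone iodine on the wound. The CON mice had neither this anaesthesia nor the operation. Both groups went through the behavioural tests. After the last of these, a maze test some days after the operation, all mice were deeply anaesthetised with isoflurane and perfused with saline. The tissue was then taken. In this comparison the operation, the anaesthesia given for it and the wound treatment cannot be told apart. Levels are given in CPM, the reads of an entry per 1000000 reads of the library, and 14849461 to 19471226 reads per library stood behind them.

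A miRNA hairpin gives a 5p and a 3p strand (arm), and an arm finds its target mRNAs mainly through its seed, bases 2 to 8. The gene of miR-34a is a direct transcriptional target of the tumour suppressor p53, and miR-34a acts against cell cycle and survival genes. In the brain it is known to accumulate with age. The genes of miR-34b and miR-34c share 1 primary transcript, and together with those of miR-449, which lie in an intron of Cdc20b, they are known for their high levels in cells with motile cilia, which in the brain are the ependymal cells and, in part, the choroid plexus. The terms p53-induced and ciliated-cell are used here only as names for the members, and they do not exclude each other. A response to p53 was not measured for any member. The tissue was a bulk sample, so that fewer cells of a type and less RNA per cell cannot be told apart.

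The mature sequences are shown because they divide the family by seed and by arm, the division along which the values are described. RefSeq sequences (GRCm38.p6) were matched for 5 of the 6 members, not for miR-34c-5p. The seed is in capitals, 5′ to 3′, and the first 3 share a seed.
miR-34a-5p: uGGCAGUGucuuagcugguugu
miR-34b-5p: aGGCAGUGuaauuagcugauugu
miR-449a-5p: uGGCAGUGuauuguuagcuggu
miR-34b-3p: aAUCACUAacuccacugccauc
miR-34c-3p: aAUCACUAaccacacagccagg
The seed GGCAGUG was found in 4 of the 1679 mature miRNAs of the RefSeq table, the fourth being miR-449c-5p. miR-34c-5p has no record in that table, so its absence from this count says nothing about its seed. The seed AUCACUA of the 3p arms was found in miR-34b-3p and miR-34c-3p alone. Outside the seed the members differed. Over the full length, the seed included, miR-34a-5p and miR-449a-5p carried the same base at 15 of 22 positions. For miR-34b-3p and miR-34c-3p it was 17 of 22, both counted without gaps.

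The hairpins lie at 3 places of the genome (GRCm38.p6, annotation of GENCODE M21). Mir34a lies at chr4:150068454-150068555 on the plus strand, with 17 of its bases in an exon of Gm37795, a transcript still to be experimentally checked. Mir34b, at chr9:51103562-51103645, and Mir34c, at chr9:51103034-51103110, are both on the minus strand, 451 bases apart, inside introns of Btg4, which is on the other strand. Mir449a lies at chr13:113037534-113037624 on the plus strand, in an intron of Cdc20b on the same strand. Mir449c lies in the same gene, 1442 bases away.

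All 6 members had reads in all 6 libraries. miR-34c-5p was the most abundant member, with a mean over the 6 mice of 268 CPM and rank 133 of the 1189 entries. It was followed by miR-34a-5p with a mean of 113 CPM, at rank 183. The 3p arm of miR-34b came next with a mean of 26.9 CPM. miR-449a-5p had a mean of 7.99 CPM, miR-34c-3p of 5.72 CPM and miR-34b-5p of 1.41 CPM, at rank 531.

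**Figure D1:**
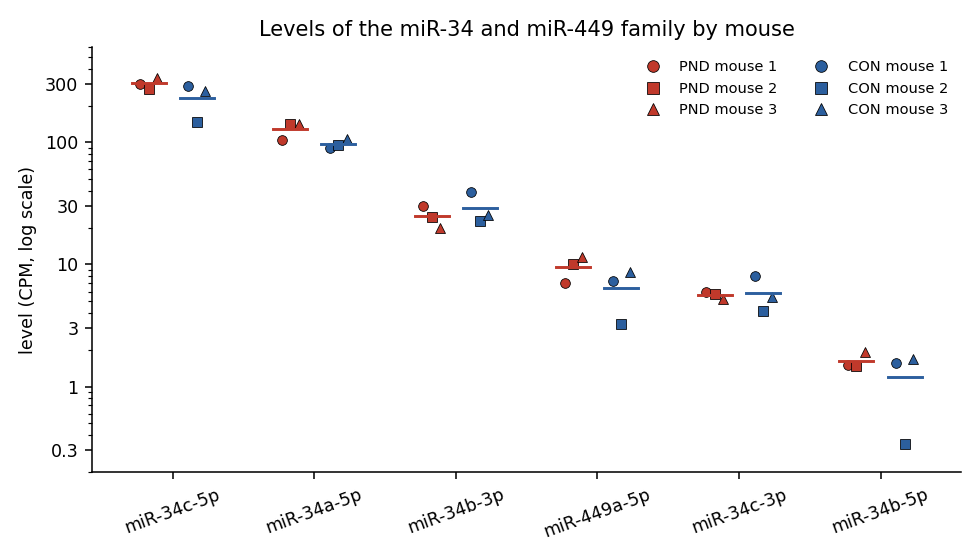
Level of each member (CPM, log scale) in each of the 6 mice, with PND in red, CON in blue and the group means as bars. From miR-34c-5p, between 147 and 334 CPM, to miR-34b-5p, between 0.337 and 1.92 CPM, the order was much the same in every mouse, and the squares of CON mouse 2 lie low for miR-34c-5p, miR-449a-5p and miR-34b-5p.

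Within a mouse this order was steady. miR-34c-5p was above miR-34a-5p in 6 of 6 libraries, 1.55 to 3.22 times as high. miR-34a-5p was above miR-34b-3p in 6 of 6 libraries, by 2.29 to 7.15 times. miR-34b-3p exceeded miR-449a-5p in 6 of 6 libraries by 1.72 to 7.08 times. The neighbours miR-449a-5p and miR-34c-3p did not separate: their ratio ran from 0.774 to 2.23, and miR-449a-5p was the higher of them in 4 of 6 libraries. Of the reads of the 6 members, miR-34c-5p took 54.0 to 66.7% and miR-34a-5p took 20.7 to 34.8%, so that together these arms held the greater part of the family in each mouse. These comparisons between miRNAs are of read shares, and different small RNAs can be ligated and amplified with different efficiency.

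The other arms of the same genes were close to the limit of detection. A library with 0 reads of an entry allows up to 3 reads, which is 0.154 to 0.202 CPM here. miR-34a-3p was listed at 0.103, 0.341 and 0.282 CPM in PND mice 1, 2 and 3, and at 0.131, 0 and 0.0621 CPM in CON mice 1, 2 and 3. miR-449a-3p had reads in PND mouse 1 alone and miR-449c-5p in CON mouse 1 alone. The log2 fold change of miR-34a-3p was 0.22, with an unadjusted limma p of 0.045, a Benjamini-Hochberg adjusted p of 0.77 and an exact permutation p of 0.2, on 2, 6 and 5 reads against 2, 0 and 1 reads.

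Compared with the CON group, none of the 6 members passed both limits that the study used, which were more than a 2-fold change in either direction together with an unadjusted p below 0.05, in limma on log2(CPM + 1). Over all entries the limits were passed by 1 of 1189, or 0.0841%. The paper names edgeR for its p and TPM for its fold change, and limma as well, so its own count rests on another measure. With edgeR's exact test 31 of 1189 entries passed both limits here, and 0 of them were members. miR-34a-5p was the 1 member with an unadjusted p under 0.05, against 61 of 1189 entries (5.13%), and no member had a Benjamini-Hochberg adjusted p under 0.05, against 5 entries (0.421%). The adjusted p of limma was 0.77 for 5 members and 0.98 for miR-34c-3p. Of the members 4 had a log2 fold change above 0, with a median over the 6 of 0.36. Without CON mouse 2, 3 were above 0 and the median was 0.07, and without CON mouse 1 all 6 were above 0 with a median of 0.41. Of all entries, 776 of 1189 were above 0, with a median of 0.05. Among the 361 entries with a mean of at least 10 CPM, 286 were above 0, and their median was 0.14, which is the general shift between the groups at this scaling. The groups overlapped for each of the 6 members, whereas they did not overlap for 9.92% of all entries (7.91% with PND higher and 2.02% with CON higher).

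miR-34a-5p, the p53-induced member, was at 105.3, 140.2 and 142.4 CPM in PND mice 1, 2 and 3. It was at 90.0, 94.95 and 106.0 CPM in CON mice 1, 2 and 3. PND mice 2 and 3 were above every CON mouse, and PND mouse 1 was just below CON mouse 3, so that the groups overlapped. The means were 129 ± 20.8 and 97.0 ± 8.19 CPM (SD, n = 3 each), a ratio of 1.33. The log2 fold change was 0.40 (SE 0.15, 95% interval 0.05 to 0.76), or 0.27 above that general shift. In limma the unadjusted p was 0.031 and the Benjamini-Hochberg adjusted p was 0.77. An exact two-sided permutation test over the 6 mice gave p = 0.2, where the smallest p that 3 against 3 mice can give is 0.1. The unadjusted limma p rose to 0.083 with TMM factors (log2 fold change 0.28) and to 0.114, 0.107, 0.092 and 0.059 without PND mouse 2, PND mouse 3, CON mouse 1 and CON mouse 2.

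miR-34c-5p, the main arm of the ciliated-cell genes, was at 300.4, 276.1 and 334.1 CPM in the PND mice and at 289.5, 147.3 and 261.3 CPM in the CON mice. CON mouse 2 was far below the other 5, and CON mouse 1 lay among the PND mice. The log2 fold change was 0.44 (SE 0.24, 95% interval -0.13 to 1.003, limma unadjusted p = 0.113), with 303.5 ± 29.1 against 232.7 ± 75.3 CPM (SD, n = 3 each). It was 0.14 without CON mouse 2.

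The partner arm, miR-34c-3p, was at 5.91, 5.68 and 5.19 CPM in the PND mice and at 7.99, 4.18 and 5.41 CPM in the CON mice. The PND values lay inside the range of the CON values, whose highest mouse was CON mouse 1 and whose lowest was CON mouse 2. The log2 fold change was -0.02 (SE 0.22, 95% interval -0.54 to 0.50, limma unadjusted p = 0.931). It was 0.19 without CON mouse 1 and 0.02 without PND mouse 3.

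miR-34b-3p was at 29.9, 24.3 and 19.9 CPM in the PND mice and at 39.3, 22.9 and 25.4 CPM in the CON mice. The groups overlapped, with CON mouse 1 highest and PND mouse 3 lowest. The means were 24.7 ± 5.02 and 29.2 ± 8.84 CPM (SD, n = 3 each), and the log2 fold change was -0.21 (SE 0.24, 95% interval -0.76 to 0.34, limma unadjusted p = 0.399). Without CON mouse 1 it was 0.02.

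The 5p arm of miR-34b was at 1.49, 1.48 and 1.92 CPM in the PND mice and at 1.57, 0.337 and 1.68 CPM in the CON mice, which is 5 reads in CON mouse 2 and 24 to 34 reads in the others. The other 5 mice were alike in the 2 groups. The log2 fold change of 0.32 (SE 0.28, 95% interval -0.32 to 0.96, limma unadjusted p = 0.277) was -0.0016 without CON mouse 2.

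miR-449a-5p, the abundant arm of the Cdc20b intron, was at 7.09, 10.1 and 11.6 CPM in the PND mice. It was at 7.33, 3.23 and 8.64 CPM in the CON mice. CON mouse 2 was lowest again and PND mouse 3 highest, and the groups overlapped through PND mouse 1. The means were 9.57 ± 2.28 and 6.40 ± 2.82 CPM (SD, n = 3 each), and the log2 fold change was 0.58 (SE 0.33, 95% interval -0.19 to 1.34, limma unadjusted p = 0.119). Without CON mouse 2 it was 0.21. For these 5 members the exact permutation p ranged from 0.2 to 0.9.

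**Figure D2:**
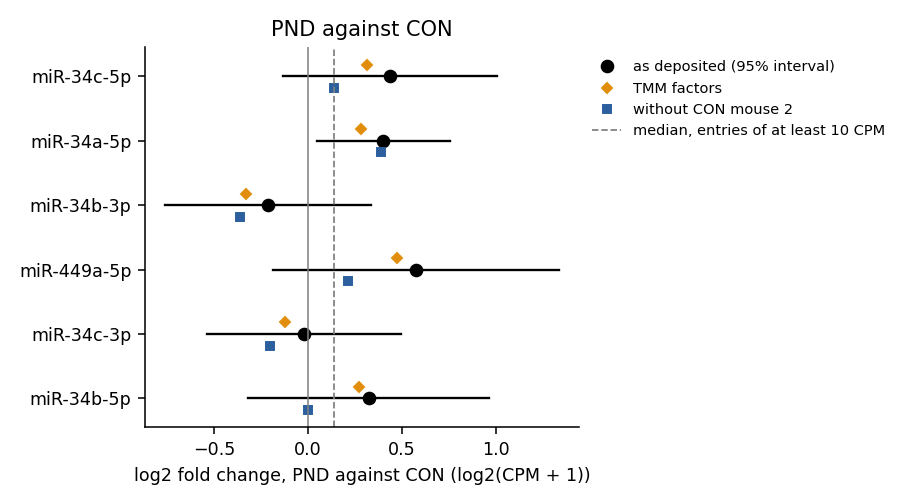
Log2 fold change of each member, PND against CON, on log2(CPM + 1), with the 95% interval from limma as a line, the value with TMM factors as a diamond and the value without CON mouse 2 as a square. The dashed line is the median of 0.14 over the entries with at least 10 CPM. The interval of miR-34a-5p (0.05 to 0.76) was the 1 interval above 0, and the squares of miR-34c-5p, miR-449a-5p and miR-34b-5p lie at 0.14, 0.21 and -0.0016.

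CON mouse 2 was the lowest mouse for 4 of the 6 members, and it was also the lowest for 244 of the 361 entries with at least 10 CPM (67.6%). In this mouse miR-128-3p, a neuronal miRNA, took 29.2% of the reads, against 17.6 to 23.2% in the others, and the TMM factor was 0.860, against 0.992 to 1.07. The part of this composition in the low values of the members was not tested. With TMM factors, which scale for such a share, CON mouse 2 still held the lowest miR-34c-5p, at 171 CPM against 260 to 313 CPM in the other 5 mice. The same held for miR-449a-5p, at 3.76 CPM against 7.09 to 10.8 CPM. miR-34a-5p of CON mouse 2 rose to 110 CPM on this scale and was the highest of the CON group.

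**Figure D3:**
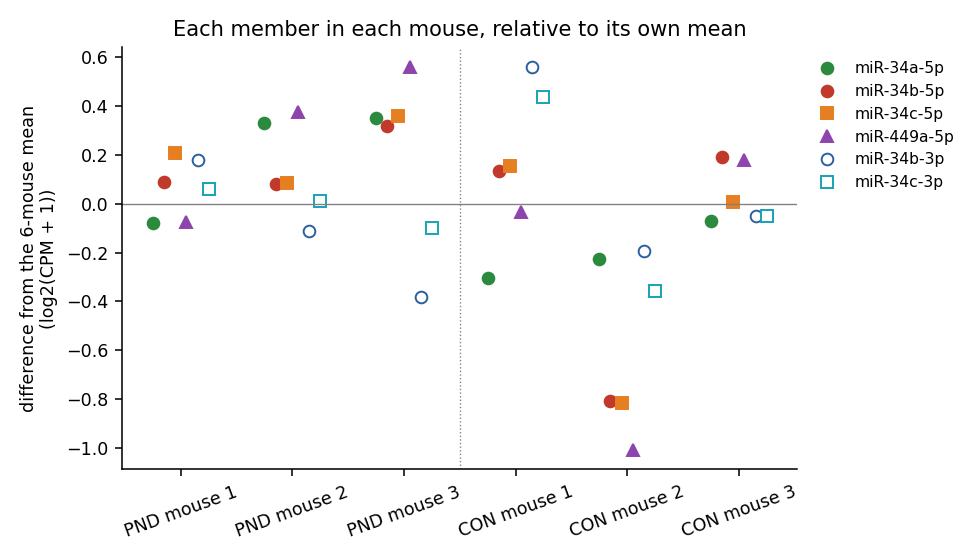
Difference of each member from its own mean over the 6 mice (log2(CPM + 1)) in each mouse, with 5p arms as filled and 3p arms as open symbols. The 5p arms of miR-34b, miR-34c and miR-449a lie together and low in CON mouse 2, the 3p arms lie highest in CON mouse 1, and miR-34a-5p is highest in PND mouse 3.

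The sum of the 5 ciliated-cell members was 344.9, 317.6 and 372.7 CPM in the PND mice, against 345.7, 178.0 and 302.4 CPM in the CON mice. CON mouse 1 was within the PND range and CON mouse 2 was lowest. The log2 difference was 0.38 (exact two-sided permutation p = 0.3, n = 3 each), and 0.09 without CON mouse 2. The sum relative to miR-34a-5p was 3.27, 2.26 and 2.62 in the PND mice, against 3.84, 1.87 and 2.85 in the CON mice. This ratio does not depend on the scaling of a library, and the PND values lay inside the CON range (log2 difference -0.03, exact two-sided permutation p = 1, n = 3 each). It was 0.04 over the 5p arms alone, 0.22 without CON mouse 1 and -0.30 without CON mouse 2.

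The sum of all 6 members did not overlap between the groups. It was 450, 458 and 515 CPM in the PND mice, against 436, 273 and 408 CPM in the CON mice (log2 difference 0.38, exact two-sided permutation p = 0.1, the smallest possible, n = 3 each). Single entries without overlap and with the PND group higher made up 7.91% of the 1189, and none of the 6 members was among them. The adjusted p over the 11 sums and ratios tested was 0.55, and the log2 difference was 0.17 without CON mouse 2 and 0.25 with TMM factors.

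The hairpins gave their arms in very different proportions. The hairpins of Mir34a and Mir449a gave nearly all their reads from the 5p arm, 99.8 to 100% and 97.2 to 100% of the reads of both arms. Mir34c gave 97.2 to 98.5% from the 5p arm. Mir34b was the reverse, and its hairpin is shown for that reason, with the 5p and then the 3p arm in capitals.
Mir34b: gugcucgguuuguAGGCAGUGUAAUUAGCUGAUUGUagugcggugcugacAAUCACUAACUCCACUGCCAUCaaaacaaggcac
Its 5p arm held 1.45 to 8.79% of the reads of both arms, from 5 of 345 reads in CON mouse 2 (exact Clopper-Pearson 95% interval 0.472 to 3.35%) to 34 of 387 in PND mouse 3 (6.16 to 12.1%). These intervals cover counting error only. Although Mir34b and Mir34c lie side by side, the abundant arm was the 3p arm for Mir34b and the 5p arm for Mir34c. The 3p arm of Mir34b carries the seed AUCACUA, and the seed of miR-34c-5p is not shown here.

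The 5p arm of miR-34c was 50.9, 48.6 and 64.3 times as high as the 3p arm in the PND mice, against 36.2, 35.3 and 48.3 times as high in the CON mice. All 3 PND mice were above all 3 CON mice, PND mouse 2 and CON mouse 3 by little. The log2 difference was 0.45 (exact two-sided permutation p = 0.1, the smallest possible, n = 3 each), with an adjusted p of 0.55 over the 11 sums and ratios. Leaving out 1 mouse at a time gave 0.33 to 0.60. The share of the 5p arm was 98.2% ± 0.258 in the PND and 97.5% ± 0.402 in the CON group (SD, n = 3 each).

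For miR-34b the 3p arm was 20.1, 16.4 and 10.4 times as high as the 5p arm in the PND mice, against 25, 68.0 and 15.1 times as high in the CON mice. The groups overlapped (log2 difference -0.97, exact two-sided permutation p = 0.3, n = 3 each), and the value of 68.0 rests on the 5 reads of CON mouse 2, without which the log2 difference was -0.37. The 3p arms of miR-34b and miR-34c, which share their seed and come from neighbouring hairpins, had a ratio to each other of 3.84 to 5.48 over the 6 mice. The ratio of miR-34c-5p to miR-34b-5p ran from 156 to 438, where 438 is CON mouse 2 with its 5 reads of miR-34b-5p. In the other 5 mice the highest value was 1.32 times the lowest for the 3p arms and 1.30 times for the 5p arms.

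**Figure D4:**
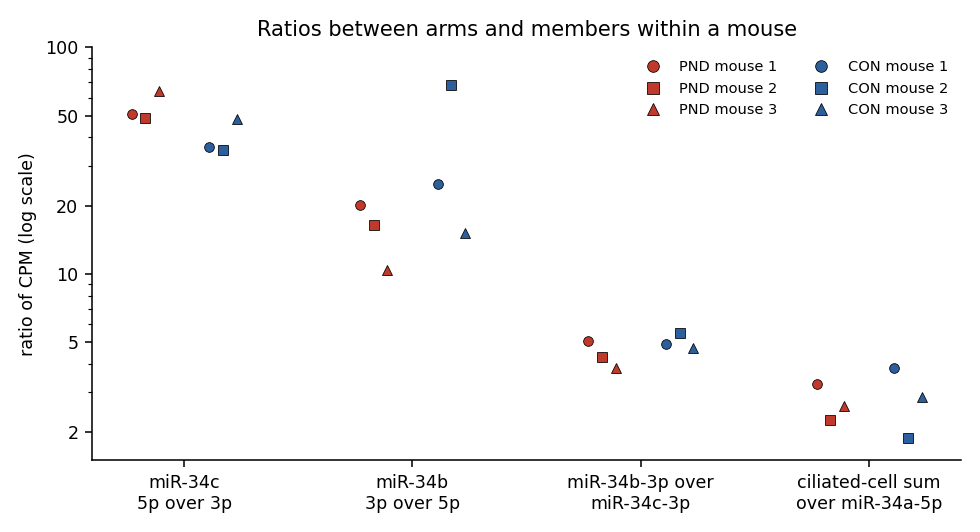
Ratios of CPM within a mouse (log scale): miR-34c-5p over miR-34c-3p, miR-34b-3p over miR-34b-5p, miR-34b-3p over miR-34c-3p, and the sum of the 5 ciliated-cell members over miR-34a-5p. The PND mice (red) lie above the CON mice (blue) for miR-34c (48.6 to 64.3 against 35.3 to 48.3), and the groups overlap in the other 3 ratios.

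Over the 6 mice, 12 of the 15 pairs of members had a Pearson r above 0 on log2(CPM + 1). At the deposited scaling the exact permutation p of r was under 0.05 for 3 pairs. No pair had a Benjamini-Hochberg adjusted p under 0.05 at this scaling (smallest 0.188 for r and 0.438 for Spearman's rho). The 3 pairs were those among the 5p arms of miR-34b, miR-34c and miR-449a. All the pairs share the 6 libraries and their scaling, and the correlations hold both the difference between groups and that within them.

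miR-34b-5p and miR-34c-5p had r = 0.97 (exact permutation p = 0.032, adjusted 0.188, rho = 0.60, p = 0.242, n = 6). The relation rested on the mice at the ends: r was -0.68 without CON mouse 2 and PND mouse 3, the mice farthest from the median of miR-34b-5p, and 0.56 without CON mouse 2 alone. miR-34b-5p and miR-449a-5p had r = 0.94 (exact permutation p = 0.021, adjusted 0.188, rho = 0.66, p = 0.175, n = 6), and r was -0.05 without the same mice and 0.65 without CON mouse 2. miR-34c-5p and miR-449a-5p, which come from different chromosomes, had r = 0.91 (exact permutation p = 0.049, adjusted 0.188, rho = 0.49, p = 0.356, n = 6), and r was -0.70 without the same mice and 0.35 without CON mouse 2. In each of these 3 pairs the unadjusted p rose above 0.05 without CON mouse 2. With all 6 mice, r for deviations from the group means was 0.98, 0.93 and 0.86, in the order given. It was 0.93, 0.88 and 0.82 after the median of each library was subtracted. Both of these settings keep CON mouse 2.

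The 3p arms of miR-34b and miR-34c had r = 0.85 (exact permutation p = 0.050, adjusted 0.188, rho = 0.89, p = 0.033, adjusted 0.438, n = 6). Here r was 0.73 without CON mouse 1 and PND mouse 3, the mice farthest from the median of miR-34b-3p, and 0.93 without CON mouse 2. Without CON mouse 1, the highest mouse for both arms, it was 0.52 (exact permutation p = 0.392, n = 5). It was 0.89 for deviations from the group means and 0.93 after the median of each library was subtracted. Between arms of the same hairpin, r was 0.62 for miR-34c-5p and miR-34c-3p (exact permutation p = 0.261, adjusted 0.552, rho = 0.37, p = 0.497, n = 6; 0.49 without the 2 mice farthest from the median of miR-34c-5p, CON mouse 2 and PND mouse 3), with -0.12 without CON mouse 2 and 0.86 without CON mouse 1. For miR-34b-5p and miR-34b-3p r was 0.16 (exact permutation p = 0.726, adjusted 0.778, rho = -0.03, p = 1, n = 6; 0.01 without CON mouse 2 and PND mouse 3), and without CON mouse 2 alone it was -0.59.

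miR-34a-5p did not have an unadjusted p under 0.05 with any other member. With miR-34c-5p r was 0.48 (exact permutation p = 0.399, adjusted 0.598, rho = 0.37, p = 0.497, n = 6), and 0.05 for deviations from the group means. With miR-449a-5p, a carrier of the same seed, r was 0.72 (exact permutation p = 0.083, adjusted 0.250, rho = 0.83, p = 0.058, n = 6). With miR-34b-3p r was -0.67 (exact permutation p = 0.136, adjusted 0.340, rho = -0.66, p = 0.175, n = 6). It was -0.95 with TMM factors (unadjusted exact permutation p = 0.0028, the r of 1 pair among 15) and -0.90 without CON mouse 2. No adjusted p was computed with TMM factors. The absence of pairs with an adjusted p under 0.05 was therefore shown for the deposited scaling only, and it may not hold with TMM factors. PND mice 2 and 3 were the farthest from the median of miR-34a-5p, and without them r was 0.28, 0.40 and -0.47 for these 3 pairs.

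**Figure D5:**
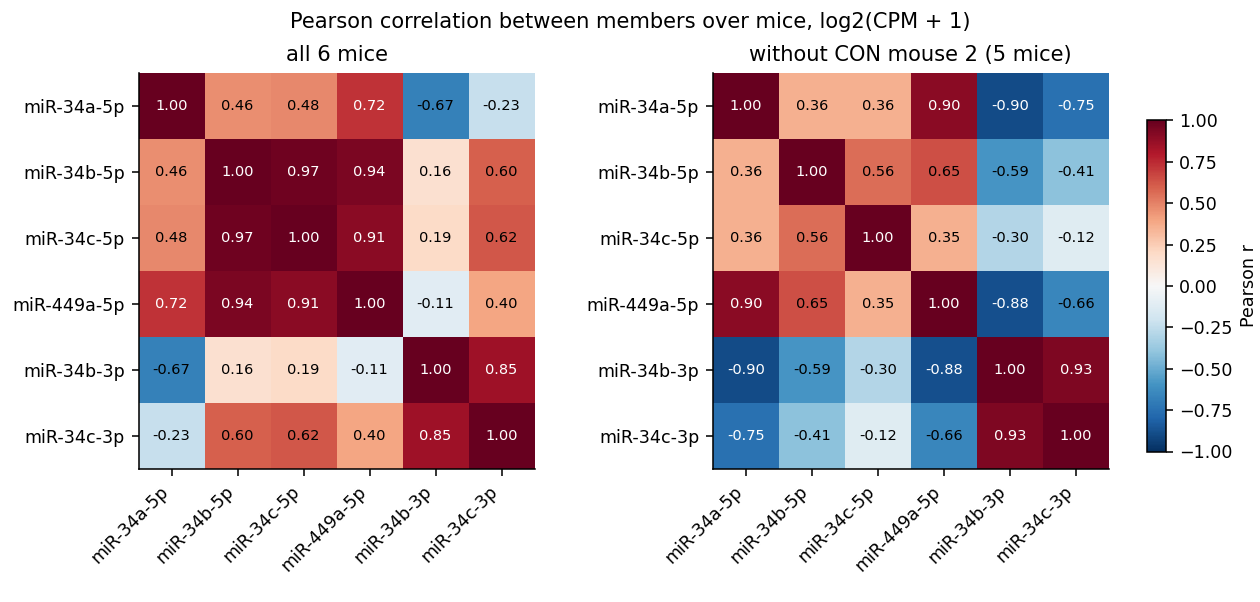
Pearson r between members over mice on log2(CPM + 1), for all 6 mice (left) and without CON mouse 2 (right), from -1 (blue) to 1 (red). The block of 5p arms of miR-34b, miR-34c and miR-449a falls from 0.91 to 0.97 on the left to 0.35 to 0.65 on the right, and the pair of 3p arms goes from 0.85 to 0.93 (it was 0.52 without CON mouse 1, which is not drawn).

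Among the other named entries with a mean of at least 10 CPM, those most like each member in r over the 6 mice are given as a description. For miR-34a-5p they were miR-27b-3p (r = 0.96), miR-30c-2-3p (0.96) and miR-203-3p (0.94). For miR-34c-5p they were miR-331-3p (r = 0.99), miR-325-3p (0.98) and miR-381-3p (0.98). For miR-449a-5p they were miR-32-5p, miR-1983 and miR-380-3p, and for miR-34b-5p they were miR-187-3p, miR-381-3p and miR-19b-3p, all with r of 0.99 or above when rounded. The 3p arms had other neighbours, miR-92b-3p, miR-673-5p and miR-26a-2-3p for miR-34b-3p (r = 0.93 to 0.94) and miR-342-5p, miR-760-3p and miR-664-3p for miR-34c-3p (r = 0.97 to 0.98). An r above 0.9 was common for the 5p arms of the ciliated-cell genes, with 115 of 360 entries (31.9%) for miR-449a-5p, 85 of 360 (23.6%) for miR-34b-5p and 78 of 359 (21.7%) for miR-34c-5p. It was rare for miR-34a-5p and miR-34b-3p, with 4 of 359 entries each.

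Other miRNAs that p53 is known to raise or to help process were all listed, 9 of 9. Of these, 1 had an unadjusted limma p under 0.05 and a higher level in PND, miR-145a-5p, a miRNA of smooth muscle (4.04% of all entries did so), and none had an adjusted p under 0.05. Of the 9, 8 had a log2 fold change above 0, beside 286 of the 361 entries with at least 10 CPM. The median of the 9 was 0.26, beside 0.14 for those entries. CON mouse 2 was lowest for 7 of the 9, beside 67.6% of those entries. miR-145a-5p was at 234.4, 259.6 and 263.9 CPM in the PND mice and at 202.7, 165.1 and 233.9 CPM in the CON mice, without overlap but with PND mouse 1 next to CON mouse 3. Entries without overlap and with PND higher made up 7.91% of all. The log2 fold change of miR-145a-5p was 0.34 (SE 0.15, limma unadjusted p = 0.049, Benjamini-Hochberg adjusted p = 0.77). The summed level of the list was 12200 to 13650 CPM in PND and 9959 to 13244 CPM in CON, and its r with miR-34a-5p over the 6 mice was 0.79 (exact permutation p = 0.085, adjusted 0.207 over 12 relations, rho = 0.89, p = 0.033, adjusted 0.200), or 0.54 without CON mouse 1 and CON mouse 2. miR-143-3p, another miRNA of smooth muscle, made up 61.6 to 71.2% of this sum. The sum of the other 8 had r = 0.51 with miR-34a-5p (exact permutation p = 0.290, adjusted 0.290 over 2 relations, rho = 0.31, p = 0.564, n = 6), and 0.35 without CON mouse 2 and PND mouse 1.

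Marker miRNAs of other cells and tissues are set beside the members because CON mouse 1 and CON mouse 2 decided several values. Markers of neurons were present at 281632 to 316688 CPM in PND and 308552 to 373566 CPM in CON (5 of 5 listed), as the label of the tissue requires. miR-128-3p made up 62.6 to 78.3% of this sum and was highest in CON mouse 2, whereas 3 of the other 4 markers (miR-124-3p, miR-9-5p and miR-138-5p) were lowest there. The summed neuronal level had r = -0.80 with miR-34a-5p (exact permutation p = 0.038, adjusted 0.207, rho = -0.94, p = 0.017, adjusted 0.200, n = 6), and -0.96 without CON mouse 2 and PND mouse 3. Without miR-128-3p the direction turned: the sum of the other 4 had r = 0.73 with miR-34a-5p (exact permutation p = 0.106, adjusted 0.211 over 2 relations, rho = 0.83, p = 0.058, n = 6), and 0.42 without the same mice. The part of the neuronal content in the values of miR-34a-5p was not tested.

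miR-204-5p and miR-211-5p, the markers of the choroid plexus (2 of 2 listed), summed to 764 to 795 CPM in PND and 585 to 926 CPM in CON, lowest in CON mouse 2 and highest in CON mouse 1, with miR-204-5p at 99.4 to 99.8% of the sum. Their sum had r = 0.87 with that of the ciliated-cell members (exact permutation p = 0.075, adjusted 0.207, rho = 0.37, p = 0.497, n = 6). The relation rested on those CON mice: r was -0.22 without them and 0.14 without CON mouse 2 alone. Markers of olfactory or epithelial tissue (10 of 10 listed) summed to 1751 CPM in CON mouse 1, against 165 to 321 CPM in the other 5 mice. Of the 10 markers, 8 were highest in this mouse, and miR-141-3p was at 0 in CON mouse 2. The sum of the ciliated-cell members in CON mouse 1, 345.7 CPM, was within the range of the PND mice, while its miR-34b-3p and miR-34c-3p were the highest of the 6 mice. The part of the tissue content in these values was not tested.

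The markers of oligodendrocytes (2 of 2 listed) summed to 258 to 320 CPM in PND and 195 to 294 CPM in CON, and those of red blood cells (3 of 3 listed) to 47.0 to 99.5 CPM in PND and 31.9 to 54.5 CPM in CON. None of the entries in these 5 marker lists had an unadjusted limma p under 0.05 between the groups.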

How the data were processed

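Per the study's methods, small RNA libraries were made with the NEBNext small RNA kit and sequenced on an Illumina instrument, filtered with fastx, aligned with Bowtie (0.12.2 in the submitters' processing notes, which name the builds mm8 and mm9) and assigned to miRBase miRNAs. The deposited values are CPM set by the authors (called TPM in the study), with 1189 entries per library summing to 1000000. From the steps of these values whole reads were recovered (100% of values within 0.01 read). Members and lists were chosen with earlier results of these data known.

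Groups and mouse numbers came from the labels. limma 3.58.1 (trend) compared PND with CON on log2(CPM + 1), all entries in 1 fit, with Benjamini-Hochberg adjustment over all 1189 and no filter; fold changes understate those of low entries. Exact permutation tests over the 6 mice were two-sided. Correlations used exact permutation p-values. Alternatives were a pseudocount of 0.1, filters (mean of 10 CPM; 10 reads in 3 libraries), limma without trend, TMM and DESeq2 size factors, a replicate block, count tests on the recovered reads (edgeR 4.0.16, DESeq2 1.42.0, voom), and the fit with 1 mouse at a time left out. Subtraction of a median, list sums without their most abundant entry, and some values without CON mouse 1 or 2 were added after seeing the data. The limma script was tested on simulated data. Named entries were the members, their other arms, the lists, and the 3 most alike entries per member. How reads that match several miRNAs were assigned is not given in the sources used here. Mature and hairpin records came from RefSeq. SDs and p-values cover 3 mice per group, and reads carry no molecular identifiers.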

Additional observations from a re-analysis of the deposited data

How the results depend on the processing

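The direction of the log2 fold change held under every alternative tried for miR-34a-5p (0.25 to 0.54), miR-34c-5p (0.14 to 0.62) and miR-449a-5p (0.21 to 0.81). It reversed when 1 mouse was left out for miR-34b-5p (-0.0016 to 0.50), miR-34b-3p (-0.36 to 0.017) and miR-34c-3p (-0.20 to 0.19). The unadjusted p of miR-34a-5p was under 0.05 in 7 of the 17 alternatives that give a p, and its adjusted p ran from 0.366 to 1. The number of members with an unadjusted p under 0.05 was 0 with TMM factors, DESeq2 size factors, the edgeR quasi-likelihood and exact tests, DESeq2 and limma-voom, and 0 to 1 when a mouse was left out; no member passed an adjusted p of 0.05 or both limits in any of the 17 alternatives. Over all entries, the number with an unadjusted p under 0.05 was 5 over the entries averaging 10 CPM or more, 32 with at least 10 reads in 3 libraries, 28 with DESeq2 and 31 to 91 without 1 mouse. The number past both limits was 22 with a pseudocount of 0.1, and 0 over the entries averaging 10 CPM or more or without trend. It was 32 with edgeR's quasi-likelihood test or limma-voom, 31 with edgeR's exact test, 11 with DESeq2, and 0 to 1 without 1 mouse. The number with an adjusted p under 0.05 was 0 with either filter and without trend, and 0 to 3 without 1 mouse. The filters left 361 and 656 entries to test, and the cause of the other changes was not tested.

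Same-numbered mice did not deviate together in every pair (r = -0.13, 0.12 and 0.51), and mice of different numbers had r from -0.55 to 0.50. So few pairs cannot show whether the number stands for mice handled together. With the replicate block 2 entries passed both limits and 0 had an adjusted p under 0.05, and miR-34a-5p had an unadjusted limma p of 0.033 (1 member under 0.05, as without it). The ratio of the ciliated-cell sum to miR-34a-5p changed from a log2 difference of -0.03 to 0.040 over the 5p arms and to -0.30 to 0.22 without 1 mouse.

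The number of pairs of members with an unadjusted p of r under 0.05 was 5 with TMM factors and 1 to 3 without 1 mouse. No adjusted p of r is given for these alternatives. r changed sign after subtraction of the library median for miR-34a-5p and miR-34c-5p (-0.052), for both arms of miR-34b (-0.30, and -0.12 with TMM factors; -0.59 to 0.49 without 1 mouse) and for both arms of miR-34c (-0.035; -0.12 to 0.86 without 1 mouse). At 5 to 34 reads per library, miR-34b-5p was the member most limited by depth.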
